A study of Mus musculus with 2 samples.

Results

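The enzymes that break down fatty acids by beta-oxidation were compared between 2 RNA sequencing libraries of sorted cells from LLC tumors (Lewis lung carcinoma, a transplantable mouse tumor) that had grown subcutaneously. The members are 9 genes chosen by symbol, namely Cpt1a, Cpt1b, Cpt2, Acadvl, Acadl, Acadm, Hadha, Hadhb and Acaa2, out of 22886 genes in the files. Of these 9, 8 had a line of their own and all 8 averaged at least 1 RPKM across the libraries, as did 10982 genes in all. Cpt1b had no line of its own, because its RefSeq record was merged into the locus of its neighbor Chkb. By the labels, both libraries came from wild type C57BL/6 mice and hold aerobic tumor cells. The vehicle library came from mice that received the vehicle injection, and the clodronate library from mice that received clodronate, a drug used in liposomes to deplete macrophages. There was 1 library per condition, so differences could not be checked against replicates and are given without P-values. The number of mice behind a library, the gate that defined aerobic cells and the age of the mice were not given in the sources used here.

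Long-chain fatty acids enter mitochondria as carnitine esters. Carnitine palmitoyltransferase 1 on the outer membrane makes the ester, and carnitine palmitoyltransferase 2 on the inner membrane turns it back into acyl-CoA. In the matrix, acyl-CoA dehydrogenases of different chain-length preference introduce a double bond, the trifunctional protein carries out hydration, a further oxidation and thiolysis on long chains, and separate soluble enzymes do the same on shorter chains. Each round releases acetyl-CoA and passes electrons to the respiratory chain. In macrophages the pathway has been linked to the alternatively activated state, and its genes are known targets of the PPAR and ERR nuclear receptors.

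The labelled cell type was checked against marker genes. All 10 macrophage markers were high in both libraries. The lowest was Mrc1 at 174 RPKM with vehicle and Adgre1, listed as Emr1, at 261 RPKM with clodronate, and the highest was Lyz2 at 10534 RPKM with vehicle and 11189 RPKM with clodronate, whereas 3 of 6 epithelial markers (Epcam, Krt19 and Cldn4) were listed at 0 in both and the highest, Cdh1, reached 6.14 and 6.44 RPKM. Macrophage markers were thus far above epithelial ones in libraries labelled as tumor cells. The lists held no marker set for LLC cells, so the share of tumor cells was not measured. Of the macrophage markers 6 were higher and 4 lower with clodronate, and their sum was 26100 and 24770 RPKM. The 7 fibroblast markers summed to 154 RPKM with vehicle and 75.4 RPKM with clodronate. Dcn (77.3 and 28.4 RPKM) and Col3a1 (62.1 and 34.4 RPKM) made up most of this sum. Of the 6 fibroblast markers that passed the filter 5 were lower and 1, Col1a1, was higher (2.32 and 5.40 RPKM). The 5 endothelial markers summed to 3.34 and 7.84 RPKM, and 6 of 9 muscle markers and 4 of 5 adipocyte markers were listed at 0 in both. The growth protocol given with the samples is for a cultured cell line and goes against the tumor labels. In a bulk library, fewer cells of a type and less RNA per cell cannot be told apart.

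RPKM scales reads to transcript length and library size, so levels can be compared between genes. The files hold no read totals, but low values fell on steps of a constant size once multiplied by transcript length. The steps correspond to about 13755000 reads in the vehicle and 11211000 reads in the clodronate library, and 73.7% and 74.8% of the low loci lay within 0.1 of a whole number of reads, where evenly spread values would give 20%. The step was chosen to bring low values nearest to whole numbers, so this share is no independent check of it. Reads per gene were estimated from these steps. The 95% intervals below rest on these estimates and cover counting error only, not the difference between mice, sorts or library preparations, and PCR copies are not separate molecules.

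Of the 8 members, Hadhb and Acaa2 differed most between the libraries. Hadhb was 1.67-fold and Acaa2 1.95-fold higher with clodronate, while Cpt1a, Hadha and Cpt2 lay between 0.919 and 1.12 of their vehicle level and the 3 acyl-CoA dehydrogenases lay between 0.850 and 0.944 of their vehicle level. The log2 ratio used for counting was taken after adding 1 RPKM to each value, which understates changes of low genes. By this ratio 4 of the 8 members were higher and 4 lower, with a median of 0.017 against 0.019 over all genes kept. At a threshold of 2-fold 0 members were higher and 0 lower, where 6.95% of the 10982 genes were higher and 6.77% lower. At 1.5-fold 2 members (Hadhb and Acaa2) were higher and 0 lower, where the shares of all genes were 16.6% and 16.3%. With 8 members these counts do not set the enzymes apart from other genes.

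**Figure D1:**
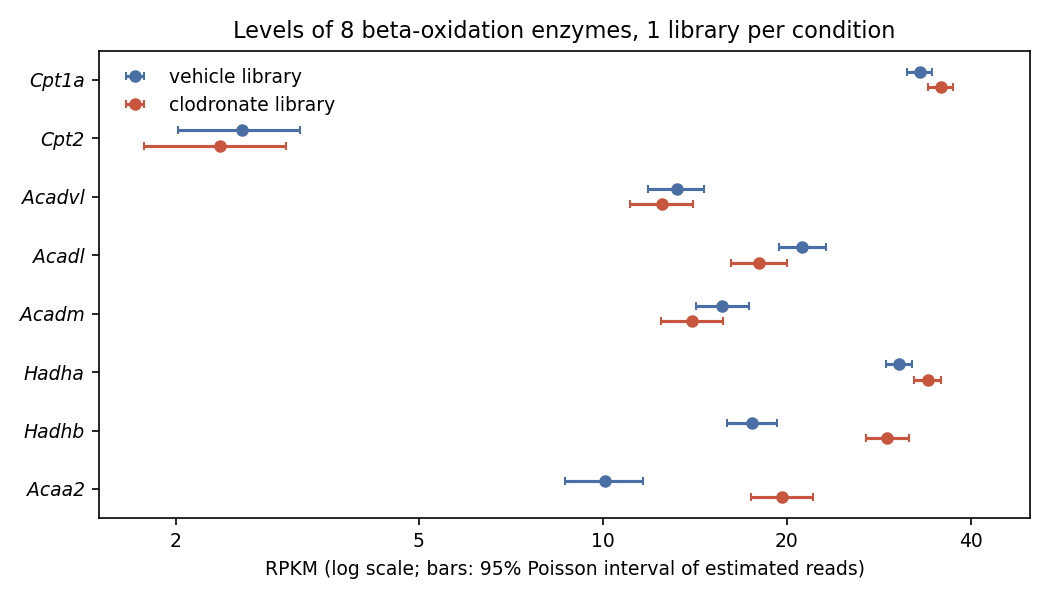
Level of each of the 8 members in RPKM (log axis) in the vehicle library (blue) and the clodronate library (red), 1 library per condition. Bars are 95% Poisson intervals of the estimated reads and cover counting error only. Between the libraries the bars are clear of each other for Hadhb, Acaa2 and, narrowly, Hadha, while those of Cpt1a, Cpt2 and the 3 dehydrogenases overlap.

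Cpt1a encodes the carnitine palmitoyltransferase 1 found in most tissues outside muscle, the step at which malonyl-CoA restrains the pathway. It lies on mm9 at chr19:3323301-3385733 and was the highest member, with 33.0 RPKM with vehicle and 35.7 RPKM with clodronate, from about 1864 and 1649 reads. The libraries differed by a ratio of 1.08 (95% exact interval 1.01 to 1.16), and with a correction for GC content and transcript length its log2 ratio went from 0.11 to 0.012. Its mean level was at percentile 78.8 of the genes kept. Cpt2, at chr4:107576587-107596194, encodes the inner membrane partner that acts after it. Cpt2 was the lowest member by far, with 2.57 RPKM with vehicle and 2.36 RPKM with clodronate, from about 76 and 57 reads. Its ratio of 0.919 (0.638 to 1.31) spans 1, and a difference within these bounds was not detectable at this depth. The Cpt1a level was 12.8 times that of Cpt2 in the vehicle library (10.2 to 16.4) and 15.1 times in the clodronate library (11.6 to 20.1), and these intervals overlap.

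Cpt1b encodes the form of carnitine palmitoyltransferase 1 that prevails in skeletal and heart muscle. In the files its RefSeq record NM_009948 shares a locus, chr15:89246836-89260358 on mm9, with NM_007692 of Chkb, a choline kinase with a role in phospholipid synthesis. The merged locus had 46.6 RPKM with vehicle and 33.7 RPKM with clodronate, a ratio of 0.723. How much of it belongs to Cpt1b cannot be read from this value, and it was left out of the counts over members. Of the 9 muscle markers Ckm, Myh1, Myh4, Myl1, Mb and Myh6 were at 0 in either file, and the sum of all 9 was 25.9 RPKM with vehicle and 18.1 RPKM with clodronate.

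The acyl-CoA dehydrogenases start each round, with Acadvl acting on very long, Acadl on long and Acadm on medium chains. All 3 were slightly lower in the clodronate library. Acadl, at chr1:66877413-66909883, had 21.2 RPKM with vehicle and 18.0 RPKM with clodronate, a ratio of 0.850 (0.739 to 0.977). Its interval leaves out 1, but with a correction for GC content and transcript length its log2 ratio went from -0.22 to -0.027, nearly level. Acadm, at chr3:153585317-153607607 and the gene mutated in the commonest human disorder of this pathway, had 15.7 and 14.0 RPKM, a ratio of 0.893 (0.764 to 1.04). Acadvl, at chr11:69823685-69828930, had 13.2 and 12.5 RPKM, a ratio of 0.944 (0.806 to 1.11). The order of the dehydrogenases was the same in both libraries, Acadl above Acadm above Acadvl, although the intervals of Acadm and Acadvl overlapped in each. A transcript of Acadvl shares 256 nt with one of its neighbor Dvl2 in GENCODE M21, so that reads of this stretch fit either gene.

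Hadha and Hadhb encode the alpha and beta subunits of the mitochondrial trifunctional protein, and the subunits act as 1 complex. The genes lie head to head, Hadha at chr5:30430124-30481520 and Hadhb at chr5:30481862-30511123 on mm9. In GRCm38.p6 the RefSeq starts are separated by 272 bases, chr5:30154981-30155252, and the promoter windows of both genes share 228 of their 300 bases. The stretch between the starts is shown because both genes are transcribed away from it while their ratios between the libraries differed. It is written on the strand of Hadhb, with the 2 matches to GGGCGG, the core of the GC box bound by Sp1, in capitals:

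Hadha to Hadhb: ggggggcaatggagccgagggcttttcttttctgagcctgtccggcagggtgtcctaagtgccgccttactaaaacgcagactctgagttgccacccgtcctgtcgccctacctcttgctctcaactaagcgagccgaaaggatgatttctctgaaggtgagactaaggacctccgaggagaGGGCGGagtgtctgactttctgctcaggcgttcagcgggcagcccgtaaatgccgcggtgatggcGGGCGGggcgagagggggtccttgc

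Hadha had 30.5 RPKM with vehicle and 34.0 RPKM with clodronate, from about 1599 and 1457 reads, a ratio of 1.12 (1.04 to 1.20). With the same correction its log2 ratio went from 0.15 to 0.054. Hadhb had 17.5 RPKM with vehicle and 29.2 RPKM with clodronate, from about 440 and 601 reads, a ratio of 1.67 (1.47 to 1.89). The intervals of the subunits do not overlap, and the gap between them is larger than counting error. The level of Hadha stood at 1.74 times that of Hadhb in the vehicle library (1.57 to 1.94) and at 1.16 times in the clodronate library (1.06 to 1.28). Among the 3906 genes with a mean of 10 to 40 RPKM, 9.45% had a log2 ratio at least as high as that of Hadhb (0.71), against 41.1% for Hadha (0.15). Processed pseudogenes limit the value of Hadhb, since GENCODE M21 holds 2 of them (Gm13910 and Gm9108) with stretches of at least 95% identity, the longest 1428 nt, and neither has a line in the files. For Hadha the locus in the files spans 51397 nt against 35558 nt for the gene in GRCm38.p6 and overlaps 2 other loci, so the transcript length behind its read estimate is uncertain.

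Acaa2 encodes the mitochondrial 3-ketoacyl-CoA thiolase that splits acetyl-CoA from medium chains at the end of a round. It had 10.1 RPKM with vehicle and 19.7 RPKM with clodronate, from about 181 and 290 reads. The ratio of 1.95 (1.62 to 2.36) was the largest of the 8 members, and the log2 ratio after adding 1 RPKM was 0.90, short of 2-fold. Among the genes of 10 to 40 RPKM 4.74% had a log2 ratio at least as high, and 8.41% of all genes kept. In the vehicle library Acaa2 was lower than every member except Cpt2, whereas in the clodronate library it stood above the 3 dehydrogenases, although its interval overlapped that of Acadl. Hadhb was below Acadl with vehicle and above it with clodronate, with intervals that did not overlap in either library. At the top the intervals of Cpt1a and Hadha overlapped in both libraries.

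**Figure D2:**
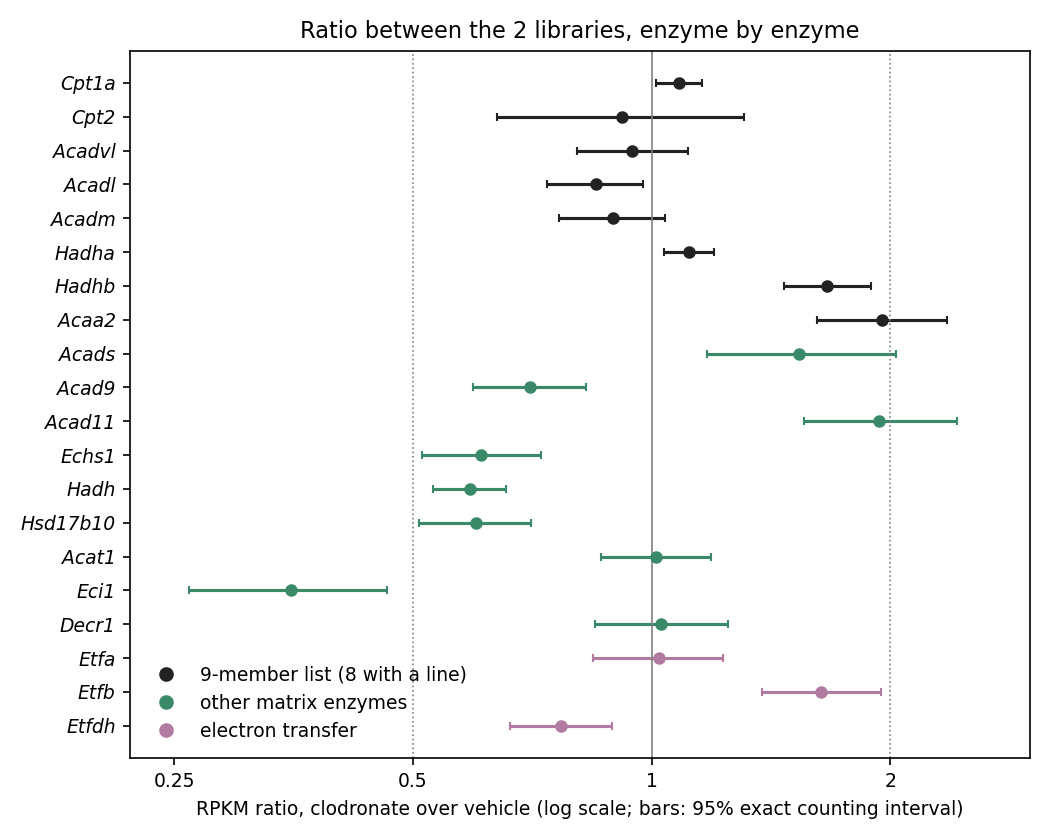
RPKM ratio of clodronate to vehicle (log axis) for the 8 members (black), other matrix enzymes (green) and electron transfer genes (purple), with 95% exact counting intervals and dotted lines at 2-fold. Eci2, whose locus holds several RefSeq records, has no read estimate and is not drawn. The intervals of Cpt1a, Hadha, Hadhb, Acaa2, Acads, Acad11 and Etfb lie above 1, and those of Acadl, Acad9, Echs1, Hadh, Hsd17b10, Eci1 and Etfdh below 1.

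The list of other matrix enzymes held 10 further genes, among them enzymes for shorter and unsaturated chains. Of these 10 genes 4 were higher and 6 lower with clodronate. Their median log2 ratio was -0.56 against 0.019 over all genes. Counts used the ratio after adding 1 RPKM. At 2-fold 2 of 10 were lower and 0 higher, beside 6.77% and 6.95% of all genes. At 1.5-fold 5 were lower and 1 higher, beside 16.3% and 16.6%. No test was made of this list, and its median was not computed with the correction for GC content and transcript length. With that correction the log2 ratio of Eci1 went from -1.37 to -1.30 and that of Eci2 from -1.06 to -0.92. For the remaining genes of the list no corrected value was computed. The genes past 2-fold were the enoyl-CoA isomerases, which move double bonds so that unsaturated fatty acids can be oxidized. Eci1 had 17.4 RPKM with vehicle and 6.11 RPKM with clodronate, a ratio of 0.351 (0.261 to 0.464), and Eci2 had 15.2 and 6.74 RPKM, a ratio of 0.444. Decr1, the reductase that also serves unsaturated chains, had 6.21 and 6.39 RPKM. Of the soluble enzymes for the middle steps of short chains 3 were lower as well. Echs1, the short-chain hydratase, had 21.7 and 13.3 RPKM, Hadh, the short-chain hydroxyacyl-CoA dehydrogenase, had 50.7 and 29.9 RPKM, and Hsd17b10, a further dehydrogenase of the matrix that is also part of mitochondrial RNase P, had 44.3 and 26.6 RPKM. Their ratios were 0.609 (0.513 to 0.725), 0.590 (0.531 to 0.655) and 0.601 (0.510 to 0.705). Of the remaining dehydrogenases Acads, for short chains, had 4.31 and 6.61 RPKM, a ratio of 1.54 (1.17 to 2.03). Acad11 had 3.02 and 5.85 RPKM, a ratio of 1.94 (1.56 to 2.43), and Acad9, an assembly factor of respiratory complex I as well, had 8.08 and 5.68 RPKM. In GENCODE M21 Acad11 shares 352 nt with a transcript of Ackr4, and Acad9 shares 532 nt with the antisense transcript Gm43079. Acat1, the thiolase of acetoacetyl-CoA, was nearly level with 7.97 and 8.08 RPKM. The sum of the fibroblast markers was also lower in the clodronate library (154 and 75.4 RPKM), although Col1a1 was higher. The part of fibroblast RNA in the values of the matrix enzymes was not tested.

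Electrons from the dehydrogenases pass through the electron transfer flavoprotein, made of Etfa and Etfb, to its oxidoreductase Etfdh. Etfa had 15.3 RPKM with vehicle and 15.6 RPKM with clodronate, Etfb had 25.03 and 40.98 RPKM and Etfdh had 15.7 and 12.1 RPKM. As for the trifunctional protein, the subunits differed from each other in ratio, with ratios of 1.02 (0.845 to 1.23) for Etfa and 1.64 (1.38 to 1.95) for Etfb. Etfb shares 626 nt with the transcript of Gm45233 in GENCODE M21, which has no line in the files.

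Of 5 other carnitine genes 4 passed the filter on low values. The carrier Slc25a20, which exchanges acylcarnitine for carnitine across the inner membrane between the steps of Cpt1a and Cpt2, had 6.06 and 6.58 RPKM. Crat, which buffers acetyl-CoA as acetylcarnitine, had 16.0 and 18.1 RPKM and the peroxisomal Crot had 3.54 and 3.35 RPKM. The carnitine importer Slc22a5 was the exception, with 3.55 RPKM with vehicle and 1.44 RPKM with clodronate, a ratio of 0.406 (0.283 to 0.568), and it shares 831 nt of near-identical sequence with Slc22a21. The brain form Cpt1c had 0.364 and 0.961 RPKM and did not pass.

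**Figure D3:**
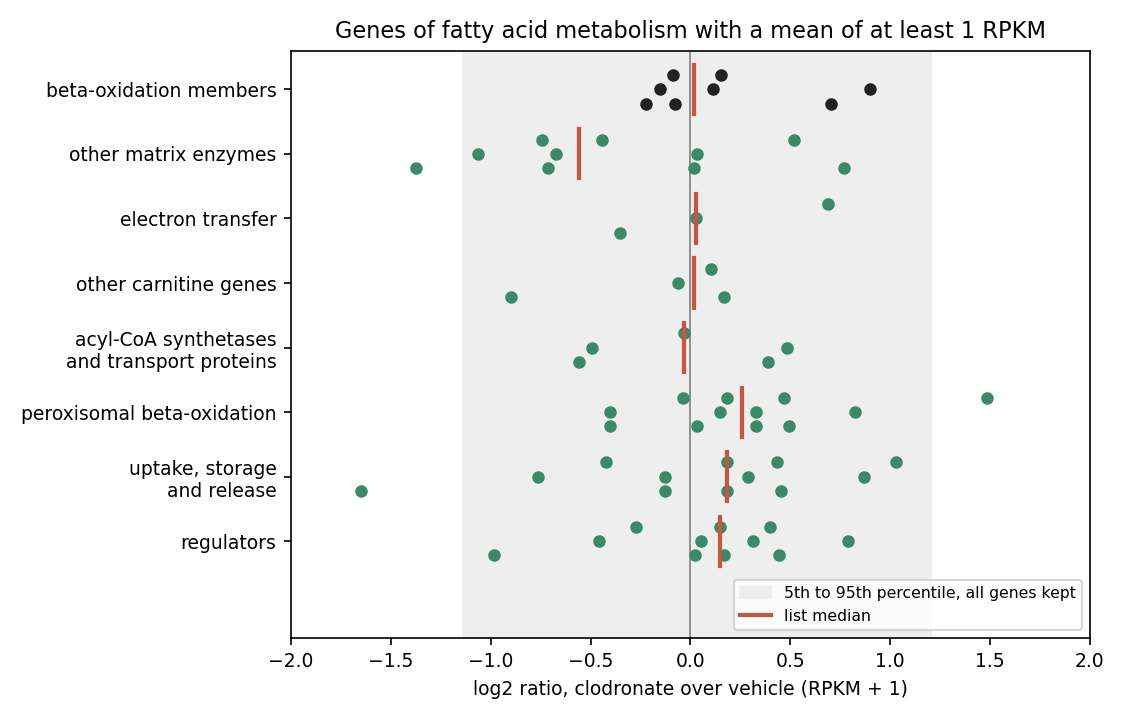
Log2 ratio of clodronate to vehicle, after adding 1 RPKM, for each gene with a mean of at least 1 RPKM in the 8 members (black) and 7 further lists (green), with list medians (red lines) and the range between the 5th and 95th percentiles of all genes kept (grey). The medians run from -0.56 for the other matrix enzymes to 0.26 for peroxisomal genes.

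Fatty acids are activated by acyl-CoA synthetases before they reach the carnitine step. Of 8 genes for synthetases and transport proteins 5 passed the filter, with a median log2 ratio of -0.03. At 1.5-fold 0 were higher and 0 lower, beside 16.6% and 16.3% of all genes. Acsl1, the synthetase at the mitochondrial outer membrane, had 15.6 and 15.2 RPKM, Acsl5 had 29.8 and 20.9 RPKM, Acsl4, which prefers arachidonate, had 33.9 and 22.7 RPKM and the transport protein Slc27a1 had 39.6 and 55.9 RPKM. Acsl3 shared a merged locus with Utp14b and was not counted.

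Peroxisomes shorten very long chains by a parallel set of enzymes. Of 15 peroxisomal genes 12 passed the filter, 9 higher and 3 lower with clodronate. Their median log2 ratio was 0.26. At 2-fold, after adding 1 RPKM, 1 gene was higher and 0 lower, beside 6.95% and 6.77% of all genes. The gene past 2-fold was Pecr, which had 0.296 RPKM with vehicle and 2.63 RPKM with clodronate from about 4 and 29 reads. Amacr had 1.07 and 2.66 RPKM, a plain ratio of 2.485 (1.63 to 3.83), and fell short of 2-fold only after adding 1 RPKM. The bifunctional enzyme Hsd17b4 had 30.5 and 22.9 RPKM, and the thiolase Acaa1a, the peroxisomal counterpart of Acaa2, had 12.2 and 17.3 RPKM, with up to 1428 nt of near-identical sequence in its copy Acaa1b. Ehhadh, the other bifunctional enzyme, had 0.0517 and 1.55 RPKM from about 2 and 48 reads and did not pass the filter.

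Genes for the uptake, storage and release of fatty acids ranged from Mgll and G0s2, at 0 in either file, to the lipid droplet coat gene Plin2 at 186 RPKM with vehicle and 255 RPKM with clodronate. The scavenger receptor and fatty acid translocase Cd36 had 71.9 and 81.7 RPKM, lipoprotein lipase (Lpl) 42.2 and 51.8 RPKM and the lysosomal acid lipase Lipa 93.8 and 69.8 RPKM. Lower levels were found for the hormone-sensitive lipase Lipe (9.33 and 10.7 RPKM), the triglyceride synthesis enzyme Dgat2 (3.58 and 1.69 RPKM) and the adipocyte form Fabp4 (1.33 and 3.25 RPKM). Of the 12 genes of this list that passed the filter 1 (Abhd5) was higher and 1 (Fabp3) lower by 2-fold or more. This count used the ratio after adding 1 RPKM, and the shares of all genes were 6.95% and 6.77%. Fabp4 and Dgat2, with plain RPKM ratios of 2.45 and 0.473, fell short of 2-fold only after that addition. Abhd5, the coactivator of the triglyceride lipase Pnpla2, had 4.71 and 10.7 RPKM, a ratio of 2.26 (1.89 to 2.71), while Pnpla2 had 48.7 and 44.5 RPKM. Abhd5 overlaps the antisense transcript A730085K08Rik over 950 nt, and the labels do not state a library that marks strand. Fabp3, the fatty acid binding protein of heart and muscle, had 30.9 and 9.16 RPKM, a ratio of 0.296 (0.222 to 0.391), and it has the near-identical pseudogene Fabp3-ps1. Among muscle markers Tnnt3 was also lower, with 10.7 and 3.92 RPKM, Tnni3 had 10.9 and 9.45 RPKM and Acta1 had 4.31 and 4.70 RPKM, while the defining marker Ckm was listed at 0 in both libraries. The macrophage form Fabp5 had 131 and 120 RPKM.

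Of 17 regulators 11 passed the filter, with a median log2 ratio of 0.15. After adding 1 RPKM 0 were past 2-fold in either direction, beside 6.95% of all genes higher and 6.77% lower. Ppara, Ppargc1a, Prkaa2 and Angptl4 were listed at 0 in both libraries. Ppard had 14.6 and 18.4 RPKM, Esrra 4.09 and 5.71 RPKM, Ppargc1b 4.24 and 6.13 RPKM and Rxra 16.5 and 18.7 RPKM, all higher in the clodronate library. Pparg was lower, with 5.47 and 2.27 RPKM. Its plain RPKM ratio of 0.415 was past 2-fold, and its log2 ratio after adding 1 RPKM was -0.98. Acaca, which makes malonyl-CoA, had 4.27 and 4.84 RPKM, Acacb, which makes it at the mitochondrial membrane, had 0.0701 and 0.150 RPKM, and Mlycd, which removes it, had 3.40 and 3.56 RPKM. The promoter windows of 7 members in RefSeq (GRCm38.p6, from 250 bases before to 50 after the start) were searched on both strands for letters that these receptors are known to bind. They were also searched for GGGCGG, the core of the GC box, and for TATAAA. Cpt1b and Acaa2 had no window. The AGGTCA of a nuclear receptor half-site was found in 3 of 7 windows (Cpt1a, Acadvl and Acadm), against 16.3% of 32851 windows of all genes. The longer TCAAGGTCA of the ERR receptors, which contains AGGTCA, and the paired PPAR element, AGGTCA repeated after any 1 base, were found in 0 of 7, against 0.423% and 0.0396% of all windows. GGGCGG was found in 5 of 7, against 35.7%, and TATAAA in 0 of 7, against 13.6%. Of the 5 windows with GGGCGG, those of Hadha and Hadhb share 228 of their 300 bases and are not independent. These matches describe the letters in the windows and not binding.

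**Figure D4:**
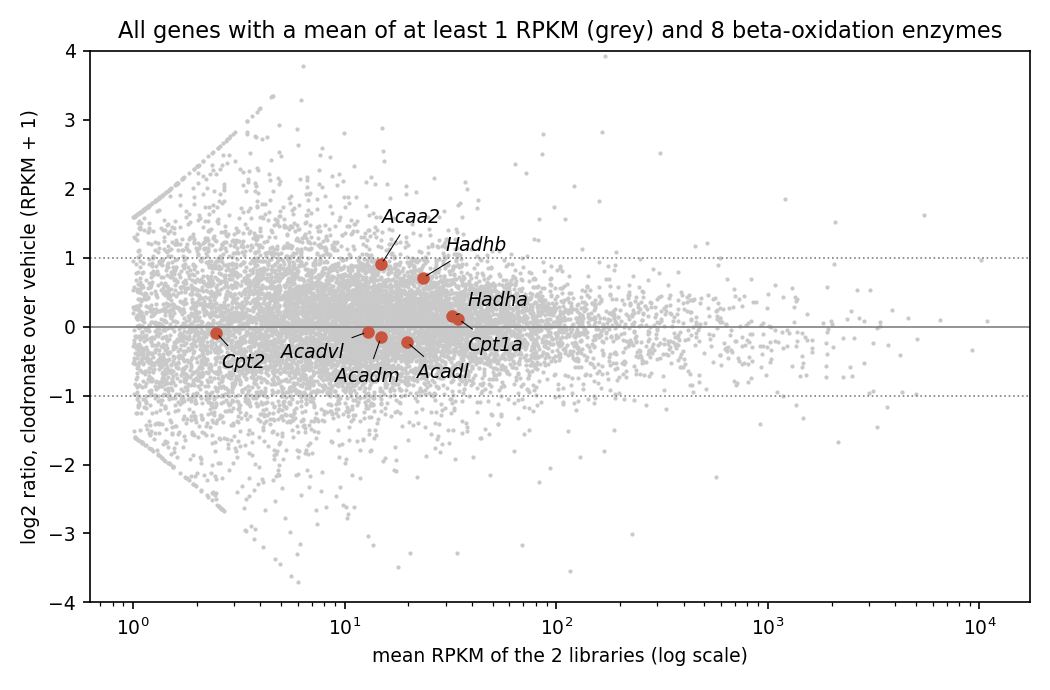
Log2 ratio of clodronate to vehicle (RPKM + 1) against the mean RPKM (log axis) for the 10982 genes kept (grey) and the 8 members (red), with dotted lines at 2-fold. The 8 members lie between the dotted lines, Acaa2 nearest to the upper one, and 52 genes lie beyond the plotted range of 4 in either direction.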

How the data were processed

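The authors deposited RPKM values for 23170 gene loci in each of 2 libraries (vehicle, clodronate). The submitters' processing notes name CASAVA 1.8.2, TopHat2 2.0.9, Bowtie 0.12.9, Cufflinks 2.2.1, Cuffdiff and the build mm9, without a role for each. The paper linked to the series describes no tumor experiment, so it gave no method. Start positions in the files count from 0 (the spans of 7167 loci equal those of RefSeq genes on that reading, 415 on the other) and are printed counting from 1. Lines of a symbol were summed, the log2 ratio was taken with a pseudocount of 1 RPKM, genes averaging 1 RPKM or more were kept, and 2-fold was the threshold. No test was made, with 1 library per condition.

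The value of 1 read was found as the step and the length subtracted (210 nt for vehicle, 200 nt for clodronate) that brought low values of loci with 1 RefSeq record and a length of 500 to 8000 nt nearest to whole multiples. Low means up to 6 reads, and lengths came from GENCODE M21. The reads give Poisson intervals of levels and Clopper-Pearson intervals of ratios, at 95%. Near-identical copies were searched with blastn in GENCODE M21 transcripts, at 95% identity over at least 200 nt. The estimate of reads, the band of 10 to 40 RPKM, the copies and the motifs were chosen after seeing the data. Named genes are the members, genes of the lists and their neighbors or copies. The members and lists were chosen with earlier results of these data known. The alternatives were another pseudocount, other filters, scalings and thresholds, the highest line of a symbol, and a correction for GC content and length in 10 bins each, for the 98.3% of genes with both. The steps were tested on simulated data. Python 3.11.15, numpy 2.4.6, pandas 2.3.3, scipy 1.17.1 and matplotlib 3.10.9 were used.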

Additional observations from a re-analysis of the deposited data

How the results depend on the processing

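By the rule used above, 763 genes passed 2-fold upward and 744 downward with clodronate. With a mean of at least 5 RPKM these counts were 346 and 356, at 3-fold 314 and 255, and at 1.5-fold 1828 and 1789, each by construction of the setting. Under the other settings run they stayed within 1.5 times. The median log2 ratio of the members was 0.017 and lay between -0.040 and 0.11, the highest with a mean of at least 5 RPKM, where Cpt2 drops out. Of 63 values of single members under the alternatives 0 changed sign. The other filters and the highest line of a symbol cannot alter the ratio of a member that is kept. Their values repeat the main ones by construction and are no check. Another pseudocount cannot change a sign either. Centring on the median and the scalings move all members nearly alike, with the median over all genes between -0.037 and 0.030 against 0.019. The member ratio closest to 0 was -0.077 (Acadvl), so only the correction for GC content and length could have turned a sign. The correction for GC content and length brought the log2 ratio of Cpt1a from 0.11 to 0.012, of Hadha from 0.15 to 0.054 and of Acadl from -0.22 to -0.027, each nearly level. The range over the settings was 0.65 to 0.84 for Hadhb and 0.84 to 0.97 for Acaa2. Eci2 was at -0.92 with that correction, short of 2-fold, and Abhd5 was at 0.98 with upper-quartile scaling. Depth limits Cpt2 most, with about 76 and 57 reads. No paired analysis was possible because there was a single library for either condition.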
